A study of Triticum aestivum with 4 samples.

Results

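The 51 miRNAs described here are the grass miRNAs of the miR1117 to miR1139, miR5048 to miR5086 and miR5163 to miR5203 series, families most of which were first named in grasses such as wheat, barley, rice and Brachypodium. They are the entries of the known miRNA table whose number lay in 1 of these ranges, with miR5200 left out. The rule uses names and no measured value, but it was set with earlier results of these data known. miR5200a-3p and miR5200-5p are counted among the other known names. Both were lower at the spring green-up than at the winter dormancy stage (log2 difference -2.83 and -1.87). They are 51 of 371 known names, fall into 42 families, and number 18 in the miR1117 to miR1139 series, 24 in the miR5048 to miR5086 series and 9 in the miR5163 to miR5203 series. Small RNA was sequenced from leaves of untreated wild-type winter wheat, cultivar Shimai 22, grown in the field. The upper fully expanded leaves were taken in October (three-leaf stage), January (winter dormancy stage), March (spring green-up stage) and April (jointing stage, when the stem elongates). RNA of 3 biological replicates was mixed into 1 library per stage, so the spread between plants was not measured, no difference between stages could be tested, and stage, season and library cannot be told apart. The tables hold small RNAs only, so the labelled tissue was not checked against leaf marker genes.

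Plant miRNAs are cut from hairpin precursors, mostly as molecules of 20 to 22 nt, and guide Argonaute proteins to matching mRNAs, which are then cleaved or held back from translation. Small RNAs of 24 nt are in most cases siRNAs from transposons and repeats that direct DNA methylation. In grasses, many hairpins come from miniature inverted-repeat transposable elements, short non-coding DNA transposons whose 2 ends are reverse complements of each other. Elements of the Stowaway type carry the letters UCCGU (as RNA) in their terminal repeat, so an RNA read through such an element holds UCCGU near one end and its reverse complement ACGGA near the other.

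Levels are given in TPM, the tags of a miRNA per 1000000 reads of its library, as deposited with 1 decimal. Where 4 levels of a name follow each other, they are those of the three-leaf, winter dormancy, spring green-up and jointing libraries, in that order. With about 18000000 to 22000000 mapped reads per library, 1 read was worth 0.0458 to 0.0552 TPM, and a level of 5 TPM rested on 91 to 109 reads. A miRNA was counted as different between 2 libraries when its levels were more than 2-fold apart and the higher one exceeded 5 TPM, values under 3 reads being raised to 3 reads first. The 95% intervals of folds are exact conditional binomial (Clopper-Pearson) intervals on reads estimated from the levels. They address counting error only and take reads as independent. Since reads are PCR copies and not independent molecules, the intervals can be too narrow even for that error. They compare libraries and not stages. No fold is given against a level listed at 0.

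By sequence, 15 of the 51 names held UCCGU or ACGGA, which is 29.4%, against 18 of the 320 other known names (5.63%) and 1 of the 47 names of the miR9652 to miR9783 series, first named in wheat (2.13%). UCCGU was found in 5 of the 15 and ACGGA in 10. Both letter strings were searched on the listed strand, each being the reverse complement of the other. With the longer strings CUCCGU and ACGGAG, 12 of the 51 and 8 of the 320 held a match. A match is a description of the letters and does not show where a read came from. Reads that matched repeat databases had been removed by the authors before known miRNAs were assigned. The names were 20 to 24 nt long, with 28 of 21 nt and 19 of 24 nt. The 24 nt names were 37.3% of the 51, against 23.4% of the other known names and 12.8% of the names of the miR9652 to miR9783 series. Of the 19, 8 began with A, and of the 28 names of 21 nt, 14 began with U. Among the other known names, 25 of the 75 of 24 nt began with A and 82 of the 156 of 21 nt with U.

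The following sequences are shown because their letters tie separate names together. The capitals mark UCCGU or ACGGA, and every line reads 5′ to 3′.
miR1127a: ucccUCCGUccggaaauacuuguc
miR1133: auacucccUCCGUccggaaauacu
miR1127b-3p: caaguauuuccggACGGAgggagu
miR1135: caaguaauuccgaACGGAgggagu
miR5174a: UCCGUuccuaaauauuugucu
miR5049d: agacaaauauuuaggaACGGA
miR5175a: acaaauauuuaggaACGGAgg
miR1122b-3p: agacuuauauuuaggaACGGA
miR1137b-5p: cUCCGUuccaaaauagaugac
miR5174d-3p: ucaucuauuuuggaACGGAgg

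Several of these lines are the 2 strands of 1 sequence. miR5049d is the exact reverse complement of miR5174a over all 21 nt. miR1127a is that of miR1127b-3p over 22 nt, and miR1137b-5p that of miR5174d-3p over 20 nt. miR1133 matched miR1127a over 20 nt on the same strand without a mismatch, and miR1135 differed from miR1127b-3p at 2 of 24 positions. Over the whole list, 25 of the 51 names shared at least 18 nt, with at most 2 mismatches, with another known or predicted entry on either strand, and for 19 of them such an overlap lay on the opposite strand. All 15 names with UCCGU or ACGGA were among the 19. There were 8 opposite-strand overlaps without a mismatch, 5 of them between 2 of the 51 names. The search started from the 51 names only. No share of the other known names stands beside these counts, and whether overlaps are more frequent here was not tested.

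Some of the complementary names had similar levels and others did not. miR1127a had 330.0 TPM in the three-leaf library, 460.2 TPM in winter dormancy, 512.6 TPM in spring green-up and 402.3 TPM in jointing. miR1127b-3p had 374.8, 383.1, 531.0 and 402.9 TPM in the same order. The ratio of miR1127a to miR1127b-3p lay between 0.880 and 1.20, and both were highest at the spring green-up stage. miR1137b-5p had 124.2, 122.7, 134.9 and 135.1 TPM, and miR5174d-3p had 160.8, 162.8, 178.0 and 142.9 TPM. Their ratio was 0.754 to 0.772 in the first 3 libraries and 0.945 at the jointing stage. For miR5049d the levels were 177.7, 215.1, 203.8 and 198.2 TPM, and for miR5174a they were 169.6, 311.7, 181.7 and 172.1 TPM. These 2 were close to equal except in the winter dormancy library, where miR5174a stood above its complement and the ratio of miR5049d to it was 0.690. By contrast, miR1127b-3p was 10.8-fold to 13.8-fold above miR1133, its exact complement over 22 nt, which had 30.5, 27.8, 39.4 and 37.3 TPM. miR5175a, complementary to miR5174a over 19 nt, had 171.1 TPM in winter dormancy and was listed at 0 in the other libraries.

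**Figure D1:**
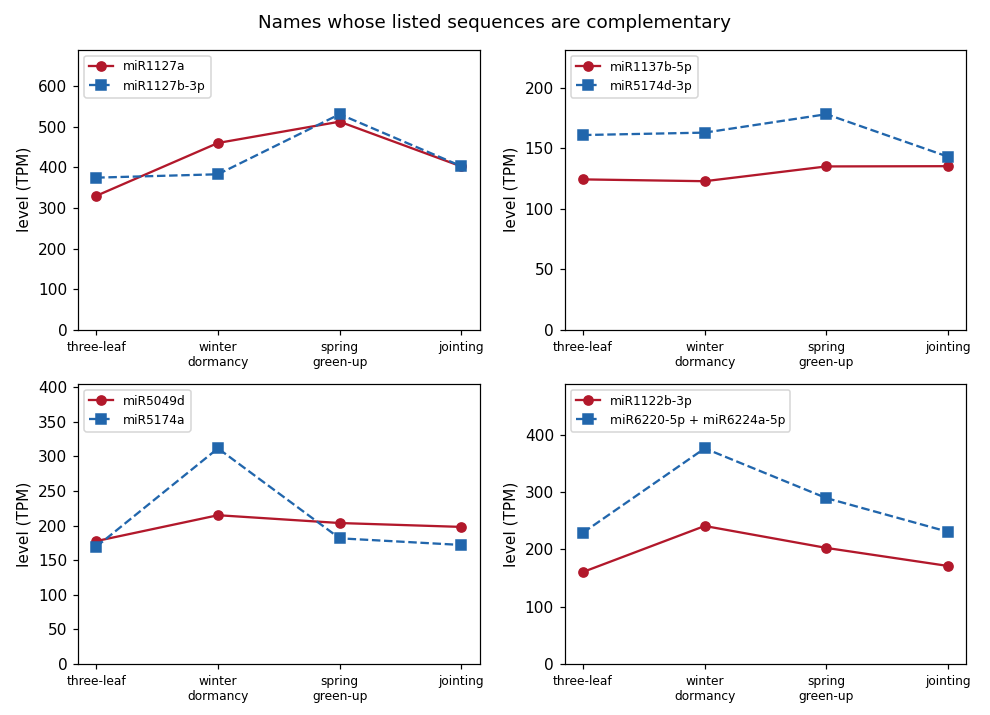
Levels in TPM of complementary names at the 4 stages, 1 library each, as points joined by lines. The first pair stays within a ratio of 0.880 to 1.20, and the lower right panel sets miR1122b-3p against the sum of 2 names that share 1 sequence.

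miR1122b-3p was the exact reverse complement over 21 nt of both miR6220-5p and miR6224a-5p, known names of other series that are printed with 1 and the same sequence.
miR6220-5p and miR6224a-5p: uccguuccuaaauauaagucu
Despite this, miR6220-5p was listed at 44.2, 83.9, 223.1 and 48.2 TPM, and miR6224a-5p at 185.0, 292.4, 66.4 and 182.5 TPM. The 2 names thus exchanged their order at the spring green-up stage, and their sum was 229.2, 376.3, 289.5 and 230.7 TPM. miR1122b-3p had 160.6, 240.9, 202.6 and 171.1 TPM, and its ratio to that sum stayed between 0.640 and 0.742. The name miR5050 stands in 2 entries of the table with the same 4 levels, while the sequence list gives a 24 nt and a 20 nt sequence for it, and which of them the levels belong to could not be settled. It was counted once, and with its 24 nt sequence in the counts of lengths above. That 24 nt sequence is also listed for miR1877. miR5050 had 9.9, 13.7, 13.8 and 16.3 TPM, with its lowest level at the three-leaf stage, where miR1877 had its highest (10.5, 8.9, 5.2 and 4.8 TPM). How reads were divided between names of the same or near-identical sequence is not given in the sources used here, so the level of a name is not the level of 1 sequence.

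Of the 15 names with UCCGU or ACGGA, 14 were above 0 in all 4 libraries, and 11 had a highest level at most 2-fold their lowest. Of the 36 names without these letters, 16 were above 0 in all libraries and within 2-fold. Several of the 15 share sequence, so they are not separate observations, and whether similar levels go with the letters was not tested. The levels of the 15 summed to 2044.8 TPM in the three-leaf library, 2646.8 TPM in winter dormancy, 2426.3 TPM in spring green-up and 2097.4 TPM in jointing. The least variable was miR1137b-5p, with a highest level 1.10-fold its lowest. miR5181-3p had 187.4, 217.4, 164.1 and 137.0 TPM, a range of 1.59-fold. miR1133 stayed between 27.8 and 39.4 TPM, miR1120 between 13.1 and 21.2 TPM, and miR1120b-3p between 18.8 and 37.3 TPM, the last being 1.98-fold apart and so just inside the limit. The other 4 of the 15 were counted as different between some libraries and are described with the comparisons.

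Of the 51 names, 8 were found, as listed or as the reverse complement, inside 9 of the 82 hairpins that were deposited with the predicted miRNAs. At most 2 mismatches were allowed, and 5 of the 8 were found there in both orientations. The other known names were not searched for in the hairpins, so no share of them stands beside these counts. The hairpin of novel_miR84 is printed because it carries miR5181-3p in both. It lies at chr1B:118120039-118120143 on the plus strand of the Chinese Spring genome of Ensembl Plants release 31, and genes at this position were not analysed here. The capitals mark the reverse complement of miR5181-3p at bases 9 to 29 and miR5181-3p itself at bases 77 to 97, both without a mismatch.
novel_miR84 hairpin: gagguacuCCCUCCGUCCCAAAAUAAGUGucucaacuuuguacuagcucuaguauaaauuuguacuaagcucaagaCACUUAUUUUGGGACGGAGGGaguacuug
The predicted miRNA of this hairpin, which overlaps the complement of miR5181-3p by 19 nt, had 11 to 19.2 TPM, so that miR5181-3p was 8.30-fold to 15.1-fold above it. The hairpin of novel_miR1153, at chr5D:159980572-159980664 on the plus strand, holds miR1136 with 2 mismatches at bases 11 to 31 and its exact reverse complement at bases 62 to 82.
novel_miR1153 hairpin: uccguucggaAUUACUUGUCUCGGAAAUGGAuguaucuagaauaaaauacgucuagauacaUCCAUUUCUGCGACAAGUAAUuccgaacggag
miR1136 had 142.9, 160.7, 185.5 and 126.8 TPM, and novel_miR1153 had 11.1, 17.1, 11.7 and 9.0 TPM. miR1136 was also found in the hairpins of novel_miR381, novel_miR652, novel_miR1009 and novel_miR465, each time with 1 or 2 mismatches. miR1127a lay at bases 1 to 24 of the hairpin of novel_miR652, with 2 mismatches. At bases 1 to 24 of the hairpin of novel_miR1009 lay the reverse complement of miR1135, with 1 mismatch. The hairpin of novel_miR1559 on chromosome 7D held miR1120, miR1120b-3p and miR1130b-3p in both orientations, with 1 or 2 mismatches. That of novel_miR1401 on chromosome 7A held only their reverse complements, also with 1 or 2 mismatches. These 3 names overlap one another on the same strand. miR5064 was found once, with 2 mismatches, in the hairpin of novel_miR1327 on chromosome 6D.

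In abundance the 51 names were led by miR5048-5p and miR5062a, neither of which held UCCGU or ACGGA. Their sequences are shown with the seed (bases 2 to 8) in capitals.
miR5048-5p: uUUGCAGGuuuuaggucuaagu
miR5062a: uGAACCUUggggaaaagccgcau
Both seeds were unique among the known names. miR5048-5p had 5062.6 TPM in the three-leaf library, 7626.3 TPM in winter dormancy, 3172.5 TPM in spring green-up and 2874.4 TPM in jointing. It was 1.51-fold higher at the winter dormancy than at the three-leaf stage (95% interval 1.49 to 1.52) and 2.40-fold lower at the spring green-up than at the winter dormancy stage (2.38 to 2.43). miR5062a had 4649.1, 4891.1, 2493.4 and 2651.2 TPM. It was 1.96-fold lower at the spring green-up than at the winter dormancy stage (1.94 to 1.98), just short of the 2-fold limit. Both were thus higher in the 2 libraries before spring than in the 2 after it, and between the jointing and the three-leaf library miR5048-5p was 1.76-fold lower and miR5062a 1.75-fold lower.

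Together miR5048-5p and miR5062a held 72.6% of the estimated reads of the 51 names in the three-leaf library (95% exact interval 72.4 to 72.8%), 76.4% in winter dormancy (76.2 to 76.5%), 59.6% in spring green-up (59.4 to 59.8%) and 61.7% in jointing (61.5 to 61.9%). The share of the 51 names in all known miRNA reads was 7.01% (6.98 to 7.03%), 7.24% (7.22 to 7.27%), 4.91% (4.89 to 4.93%) and 5.08% (5.06 to 5.10%) in the same order. Without these 2 names the other 49 summed to 3663.1, 3873.1, 3841.7 and 3434.8 TPM, and the 2 names themselves to 9711.7, 12517.4, 5665.9 and 5525.6 TPM. The lower sum of the 51 names at the spring green-up than at the winter dormancy stage thus lay mostly in miR5048-5p and miR5062a, while between jointing and spring green-up the other 49 differed by more than these 2. The median name had 37.5, 32.4, 38.3 and 36.5 TPM, against 4.3, 4.6, 3.7 and 9.9 TPM for the 320 other known names. These medians include levels listed at 0, which 182 of the 320 and 10 of the 51 had in at least 1 library. In the miR9652 to miR9783 series the median name had 32.3, 21.8, 16.5 and 16.5 TPM. At least 100 TPM in a library was reached by 21 of the 51, and 7 stayed below 5 TPM in every library.

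**Figure D2:**
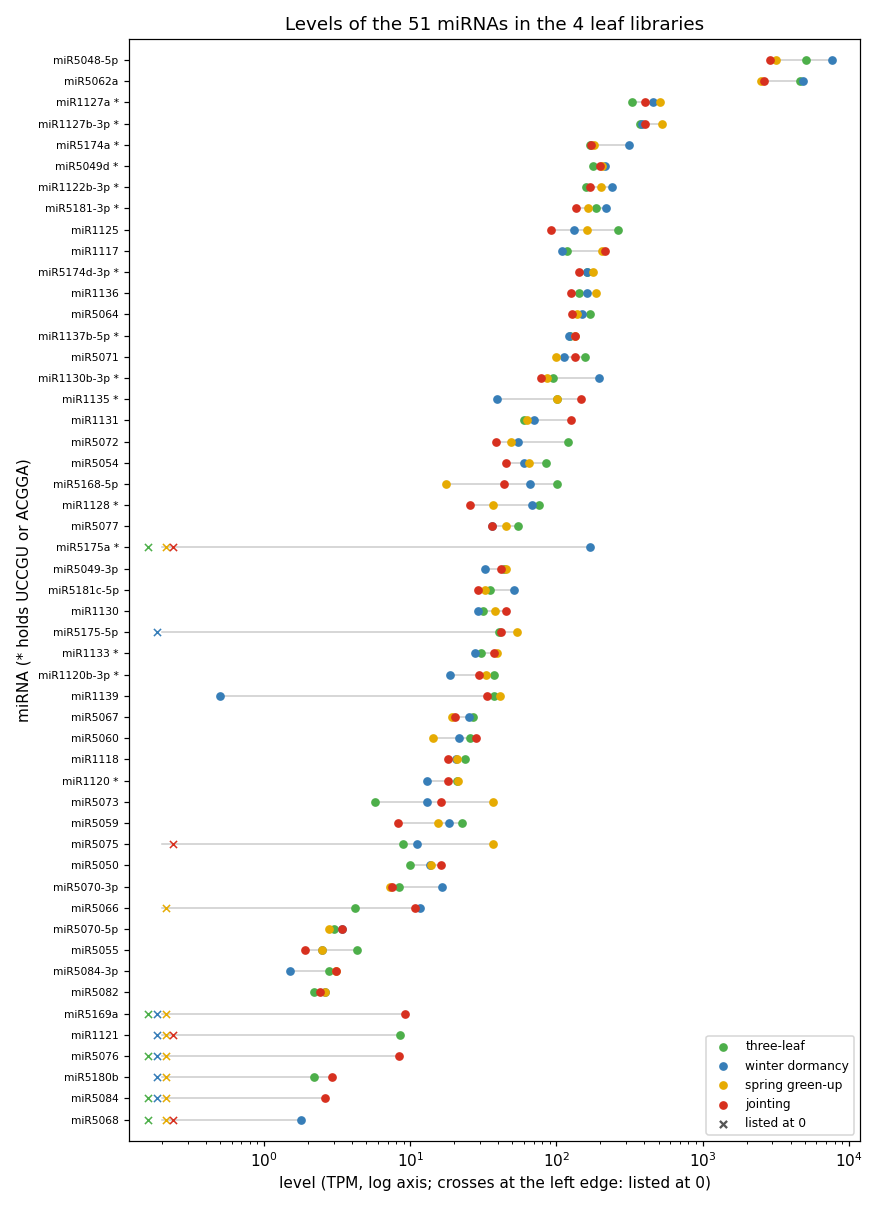
Level of each of the 51 miRNAs in TPM on a log axis, 1 point per library, ordered by mean level, with crosses at the left edge for a level listed at 0 and an asterisk for names that hold UCCGU or ACGGA. miR5048-5p and miR5062a lie apart from the others at the right in all 4 libraries, and 10 of the 51 names have at least 1 cross.

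Levels within 2-fold over the 4 libraries were more frequent among these names than over all known names. Of the 51, 27 were above 0 in all 4 libraries with a highest level at most 2-fold the lowest (52.9%), while over all 371 known names 21.3% met this. In the miR9652 to miR9783 series 34.0% met it. With levels rescaled by the median of ratios between libraries, 25 of the 51 met the 2-fold limit. With a 1.5-fold limit and the levels as deposited, 13 of the 51 stayed inside it. Only 10 of the 51 (19.6%) were listed at 0 in at least 1 library, where 51.8% of all known names and 27.7% of the miR9652 to miR9783 series were. Among names above 0 in all libraries, 27 of 41 of these miRNAs and 52 of 138 of the others stayed within 2-fold, and the median of the highest over the lowest level was 1.76 and 2.38. In the miR9652 to miR9783 series, a part of the others, 16 of 34 stayed within 2-fold, with a median of 2.31. The median of the mean level in these 41 and 138 names was close, 57.0 and 54.95 TPM. The highest level was that of the three-leaf library for 14 of the 51 names, of winter dormancy for 14, of spring green-up for 12 and of jointing for 11, ties being counted to the earlier library. Of the 320 others, 142 (44.4%) had it in the jointing library, against 21.6% of the 51. These shares include names with a listed 0. Above 0 in the 4 libraries, in stage order, were 194, 211, 198 and 247 of the 320, and 46, 45, 43 and 47 of the 51. The highest library was not counted for names above 0 in all libraries alone. These are counts over names in 4 libraries, and names that share sequence are not independent of one another.

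**Figure D3:**
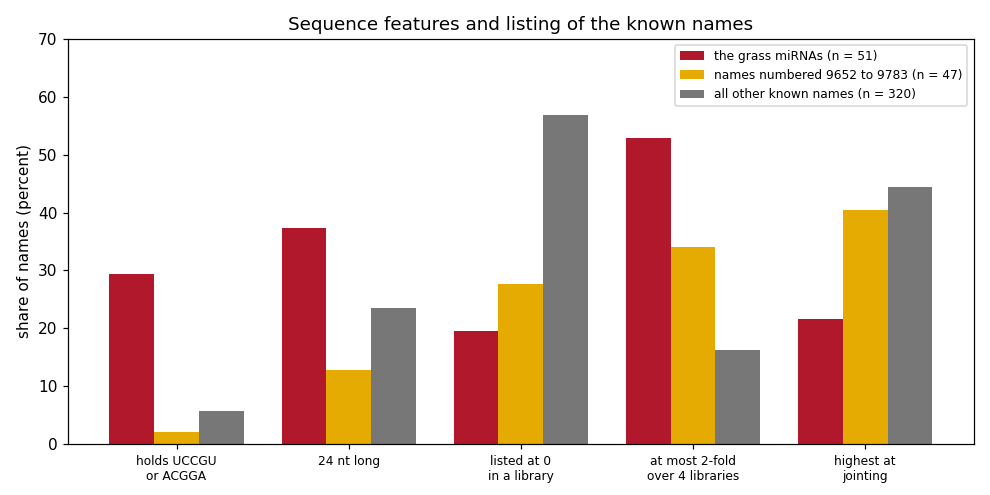
Share of names, in percent, with each feature among the 51 grass miRNAs, the 47 names of the miR9652 to miR9783 series and all 320 other known names, which include the 47. The grass miRNAs have the tallest bars for UCCGU or ACGGA (29.4%), for 24 nt (37.3%) and for levels within 2-fold (52.9%), and the shortest for a listed 0 (19.6%).

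Differences of more than 2-fold with more than 5 TPM between any 2 libraries were found for 19 of the 51 names (37.3%), against 59.8% of all 371 known names. The remaining 5 that met neither this nor the limit for similar levels were miR5055, miR5068, miR5084, miR5084-3p and miR5180b, none of them above 4.3 TPM. Just inside the 2-fold limit were miR1117 (1.98-fold between its highest and lowest level) and miR5060 (1.95-fold), and just outside it was miR1131 (2.10-fold). The 4 comparisons below share libraries, so a name that is high or low in 1 library appears in more than 1 of them.

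**Figure D4:**
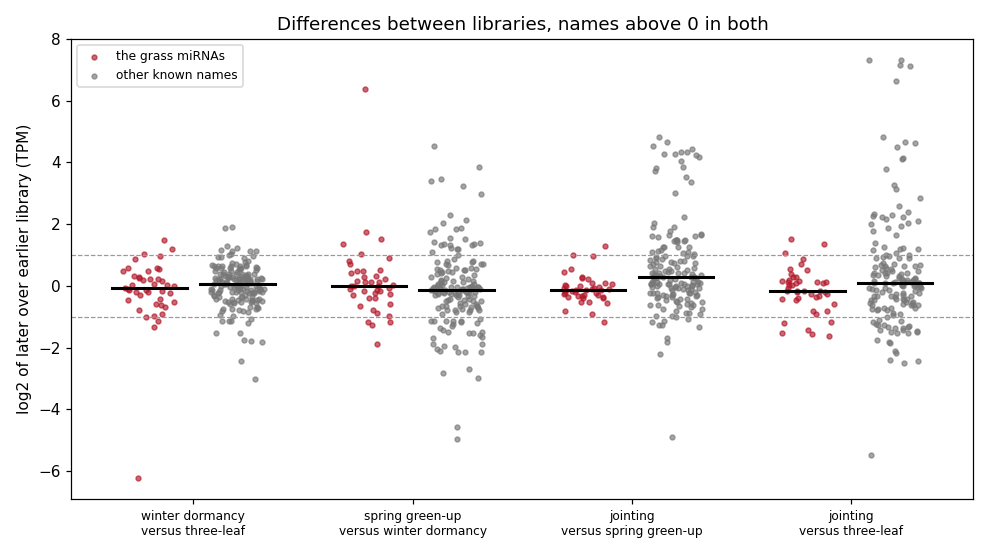
Log2 of the level in the later over that in the earlier library for names above 0 in both, with the 51 grass miRNAs on the left and the other known names on the right of each comparison. Black bars are medians and dashed lines mark 2-fold, and among the 51 names the points beyond 6 and below -6 are miR1139.

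Between the winter dormancy and the three-leaf library, which bears on the cold season, 4 of the 51 names were higher in winter (8.63% of all known names were) and 6 were lower (7.82% of all). Either way this is 10 names or 19.6%, beside 16.4% over all known names, and the median log2 difference was -0.08 for the 43 above 0 in both libraries and 0.02 for all 212 such known names. The sequences of 2 names that were lower follow with the seed in capitals, the first being the name with the widest range never listed at 0 and the second the one with the highest level among those that were lower.
miR1139: gGGAGUAAcuuagacuaguaacau
miR1125: aAUUUAACgaacgagaccgacugc
miR1139 had 37.5, 0.5, 41.4 and 33.5 TPM over the 4 stages. It was 75.0-fold lower in the winter dormancy than in the three-leaf library (95% interval 41.7 to 161, resting on 10 reads in winter) and 82.8-fold higher at the spring green-up than at the winter dormancy stage (46.0 to 178). Its other 3 levels lay within 1.24-fold of one another. miR1125 had 265.5, 131.9, 161.5 and 92.0 TPM, and was 2.01-fold lower in winter than at the three-leaf stage (1.92 to 2.11), an interval that spans the limit, and 2.89-fold lower at the jointing than at the three-leaf stage (2.74 to 3.04). miR1135, whose sequence is close to that of miR1127b-3p, had 100.3, 39.5, 100.5 and 146.7 TPM and was 2.54-fold lower in winter than at the three-leaf stage (2.34 to 2.76). It was not accompanied by miR1127b-3p, which had 383.1 TPM in winter and 374.8 TPM at the three-leaf stage. miR9493, which overlaps miR1135 by 21 nt with 2 mismatches, was listed at 144.8, 172.9, 158.0 and 0 TPM. Its listed 0 was in the jointing library, where miR1135 had its highest level.

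miR5175-5p was listed at 0 in the winter dormancy library and had 40.7 TPM in the three-leaf, 54.1 TPM in the spring green-up and 41.7 TPM in the jointing library. The opposite held for miR5175a, which had 171.1 TPM in the winter dormancy library and was listed at 0 in the other 3. These 2 names share a number but no overlap of 18 nt. miR5175a overlaps miR5049d by 19 nt and miR6224a-3p by 18 nt, in both cases without a mismatch. miR5049d had 215.1 TPM in winter, against 177.7 to 203.8 TPM in the libraries where miR5175a was listed at 0, and miR6224a-3p had 69.2 TPM in winter, against 93.9 to 112.3 TPM in those libraries. miR1121, with 8.5 TPM at the three-leaf stage, was listed at 0 in the other libraries. Among the names that were higher in winter, miR1130b-3p had 94.4, 194.3, 86.3 and 78.4 TPM, a 2.06-fold difference of winter dormancy over three-leaf (1.95 to 2.18). Of the names that overlap it on the same strand, miR1120 and miR1120b-3p had 13.1 and 18.8 TPM in winter and 21 and 37.3 TPM at the three-leaf stage, while miR5205b was listed at 118.3 TPM in winter and at 0 in the other libraries. miR5066 had 4.2, 11.7, 0 and 10.7 TPM. With levels scaled by the total of the known table, 2 names were higher in winter and 7 lower, since miR1130b-3p and miR5073 no longer passed 2-fold and miR1120b-3p did.

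Between the spring green-up and the winter dormancy library, 5 of the 51 names were higher in spring (12.1% of all known names) and 6 were lower (18.1% of all), together 21.6% of these names and 30.2% of all. The median log2 difference was 0.01 for the 42 names above 0 in both and -0.11 for all 207 such known names. With the total of the known table as the scale, 7 names were higher and 4 lower. miR1139, miR1135 and miR5175-5p were higher in spring and miR1130b-3p, miR5175a and miR5066 lower, and the spring levels of miR1139, miR1135 and miR1130b-3p (41.4, 100.5 and 86.3 TPM) lay close to those of the three-leaf library (37.5, 100.3 and 94.4 TPM). miR5048-5p (above) was lower as well, and so was miR5070-3p, with 8.4, 16.5, 7.3 and 7.5 TPM. miR5070-3p and miR5070-5p are complementary over 20 nt with 1 mismatch, and miR5070-5p had 3.0, 3.4, 2.8 and 3.4 TPM without the higher level in winter. The sequences of the 2 names with the widest range among those never listed at 0, after miR1139, are shown with the seed in capitals.
miR5168-5p: gGGUUGUUgucugguucaagg
miR5073: gUUUGGUGaaucggaaacaauuuu
miR5168-5p had 101.0, 65.7, 17.7 and 43.6 TPM. It was 3.71-fold lower at the spring green-up than at the winter dormancy stage (3.28 to 4.20), and then 2.46-fold higher at the jointing than at the spring green-up stage (2.17 to 2.80), which left it 2.32-fold lower at the jointing than at the three-leaf stage (2.14 to 2.50). miR5073 went the other way, with 5.7, 13.0, 37.1 and 16.3 TPM, and was 2.85-fold higher at the spring green-up than at the winter dormancy stage (2.48 to 3.30). miR5075 had 8.9, 11.1 and 36.8 TPM at the first 3 stages, a 3.32-fold difference of spring green-up over winter dormancy (2.85 to 3.87), with a listed 0 in the jointing library.

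Between the jointing and the spring green-up library, the change into stem elongation, 4 of the 51 names were higher at the jointing stage (26.1% of all known names) and 2 were lower (9.43% of all). This is 11.8% of these names and 35.6% of all known names. The median log2 difference was -0.14 for the 42 names above 0 in both libraries and 0.08 for all 205 such known names. The higher names were miR5168-5p and 3 that had been listed at 0 in spring, miR5066, miR5076 and miR5169a. miR5076 had 8.4 TPM and miR5169a had 9.2 TPM at the jointing stage, and both were listed at 0 in the other 3 libraries. The lower names were miR5073, 2.28-fold lower with an interval that includes 2-fold, and miR5075.

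Between the jointing and the three-leaf library, the ends of the series, 5 of the 51 names were higher at the jointing stage (24.8% of all known names) and 7 were lower (14.6% of all), together 23.5% of these names and 39.4% of all. The median log2 difference was -0.16 for the 44 names above 0 in both libraries and 0.04 for all 205 such known names. The names that were lower included 2 of the 3 that end in CCA, the letters at the 3′ end of every mature tRNA. They are shown with CCA in capitals.
miR5072: cguuccccagcggagucgCCA
miR5059: cguuccugggcagcagcaCCA
miR5054: guucgugccccacggugggcgCCA
Of the 320 other known names, 8 end in CCA. A match of 3 letters does not show that a read came from a tRNA, and reads that matched tRNA databases had been removed by the authors. miR5072 had 119.3, 54.3, 48.6 and 38.8 TPM and was 3.07-fold lower at the jointing than at the three-leaf stage (2.84 to 3.33). miR5059 had 22.6, 18.4, 15.5 and 8.3 TPM and was 2.72-fold lower (2.29 to 3.26). miR5054 had 85.3, 59.7, 64.8 and 45.4 TPM, 1.88-fold lower at the jointing than at the three-leaf stage (1.74 to 2.03), so the interval spans the limit. In all 3 the highest level was that of the three-leaf library and the lowest that of the jointing library. miR5077, which shares 18 nt without a mismatch with miR894, 1 of the 8 others that end in CCA, had 54.4, 36.1, 45.3 and 36.5 TPM, and miR894 had 161.9, 107.7, 87.7 and 60.3 TPM.

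miR1128, which holds UCCGU, had 76.2, 68.3, 37.0 and 25.7 TPM and was 2.96-fold lower at the jointing than at the three-leaf stage (2.69 to 3.27). miR1118, complementary to it over 20 nt with 2 mismatches, stayed between 18.2 and 23.6 TPM. Among the names that were higher at the jointing stage was miR1131, which shares its seed with miR1117. It was the only seed that occurred in 2 of the 51 names, and it is shown in capitals.
miR1117: uAGUACCGguucguggcacgaacc
miR1131: uAGUACCGguugguggcuccaacc
miR1117 had 117.4, 109.3, 204.3 and 216.3 TPM, and miR1131 had 59.8, 70.2, 63.3 and 125.7 TPM. Both had their highest level at the jointing stage, but miR1117 was already 1.87-fold higher at the spring green-up than at the winter dormancy stage (1.77 to 1.97), a step that miR1131 did not share, with 63.3 TPM in spring and 70.2 TPM in winter. At the jointing stage miR1131 was 2.10-fold above the three-leaf level (1.96 to 2.25), an interval that includes 2-fold, and miR1117 was 1.84-fold above it (1.75 to 1.94). miR5073 was 2.86-fold higher at the jointing than at the three-leaf stage (2.31 to 3.55) and miR5066 was 2.55-fold higher (1.99 to 3.32).

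Among the remaining names, miR5064 had 169.7, 149.3, 137.9 and 127.4 TPM. It differs at 2 of 21 positions from miR9674b-3p, which had 2150.1, 2085.8, 1793.0 and 1780.1 TPM, so both had their highest level in the three-leaf and their lowest in the jointing library. miR5071 had 155.7, 112.2, 98.9 and 134.3 TPM, a range of 1.57-fold. At lower levels, miR1130 had 28.9 to 45.0 TPM, miR5049-3p 32.4 to 45.1 TPM, miR5181c-5p 29.2 to 51.3 TPM, miR5067 19.4 to 26.7 TPM and miR5060 14.4 to 28.1 TPM. Under 5 TPM in every library were miR5055, miR5068, miR5070-5p, miR5082, miR5084, miR5084-3p and miR5180b. miR5068 was listed only in the winter dormancy library (1.8 TPM) and miR5084 only in the jointing library (2.6 TPM). In all, 6 of the 51 names and 104 of the 320 other known names were listed in a single library.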

How the data were processed

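Small RNA of 18 to 30 nt from 4 pooled leaf libraries was sequenced on a BGISEQ-500. The authors trimmed adaptors, removed reads that matched rRNA, tRNA, snRNA, snoRNA and repeat databases, and assigned reads to plant miRNAs of miRBase release 21 with at most 2 mismatches. The deposited values are RPM, called TPM by the authors, rounded to 1 decimal and too coarse to give back whole reads. Reads were estimated as the value times the mapped reads of the study's read statistics. Sequences of known names were taken from the study's supplementary list and hairpins from the deposited predicted table, since no miRNA reference was used here. Overlaps were ungapped, of at least 18 nt with at most 2 mismatches. The alternatives were a pseudocount of 1 or 0.1, other level and fold limits, 2 other scalings, listed zeros as missing, summed overlapping names, and the counting interval. Names described reached 100 TPM, differed, were listed at 0, overlapped another entry or ended in CCA, others being given as ranges or examples. The members and lists were chosen with earlier results of these data known. The calculation was tested on simulated data. Python 3.11.15, numpy 2.4.6, scipy 1.17.1 and matplotlib 3.10.9 were used.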

Additional observations from a re-analysis of the deposited data

How the results depend on the processing

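Of 48 alternative values for the counts above, 38 stayed within 1.5 times the value given. With a level of more than 50 TPM, 5 names differed between winter dormancy and three-leaf, 6 between spring green-up and winter dormancy, 0 between jointing and spring green-up and 5 between jointing and three-leaf. With a 3-fold limit the numbers were 4, 6 and 5 for the first, second and last of these. Treating a listed 0 as missing left 2 names between jointing and spring green-up. With a 1.5-fold limit, 13 names had similar levels in all libraries, and UCCGU alone was held by 5 names. Scaling by the known total moved all values by a log2 of 0.04, -0.20, 0.02 and 0.16 from the three-leaf to the jointing library. No paired analysis was possible because each stage had 1 pooled library. Depth limits the names under 5 TPM, which rest on about 100 reads or fewer, and rounding to 0.1 TPM adds up to 1 read to each estimate.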
